A study of Cavia porcellus with 12 samples.

Results

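Pericentral genes under Wnt control were examined in livers of guinea pigs with non-alcoholic steatohepatitis (NASH), the form of fatty liver disease with inflammation and hepatocyte damage, and of controls. The 10 genes were *GLUL*, *RHBG*, *OAT*, *CYP1A2*, *CYP2E1*, *AXIN2*, *LGR5*, *TBX3*, *RNF43* and *ZNRF3*, chosen by name as genes that are known to be kept active by Wnt/β-catenin signalling in the hepatocytes around the central vein. All 10 were among the 11896 genes with a human symbol in the expression table of the study. The animals were female guinea pigs of the Dunkin Hartley strain that were fed for 25 weeks. The 6 animals with NASH had received a high fat diet and had been picked for bridging fibrosis, so they stand for advanced disease and not for every animal on that diet. The 6 controls had received chow and were healthy. Each library was made from mRNA of the left lateral lobe of 1 animal, with a stranded kit and single reads, and the livers were not perfused.

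A liver lobule is divided into zones between the portal tract, where blood enters, and the central vein, where it leaves. Endothelial cells of the central vein secrete Wnt ligands and R-spondin 3, and in the neighbouring hepatocytes these stabilise β-catenin, which acts with TCF factors to switch on the pericentral programme of glutamine synthesis and of several cytochrome P450 enzymes. The same signal also switches on its own brakes. *AXIN2* encodes a scaffold of the complex that degrades β-catenin, and *RNF43* and *ZNRF3* encode membrane ubiquitin ligases that remove Wnt receptors unless R-spondins hold them back.

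The libraries held 16980274 to 28636467 counts in controls and 23704607 to 33091460 counts in NASH. TMM factors, which correct library sizes for differences in RNA composition, were 0.804 to 0.875 in controls and 1.12 to 1.24 in NASH and did not overlap. Values are given as CPM, counts relative to the TMM-scaled library size, and differences as log2 fold changes, NASH minus control, from the quasi-likelihood test of edgeR with Benjamini-Hochberg adjustment over all 11896 genes and a threshold of 0.05. The median log2 fold change over all genes was 0.0018 on this scale, 0.48 with library size alone and 0.92 when libraries were scaled to the hepatocyte markers. In whole liver tissue, fewer cells of a type and less RNA per cell cannot be told apart. Of 12 measured hepatocyte markers 10 fell and 0 rose, against 26.0% and 27.9% of all genes, with the lowest log2 fold change in *TTR* (-2.20) and the highest in *HPX* (0.05), and their summed level was 122500 to 146700 CPM in controls and 55260 to 83350 CPM in NASH. Much of this sum came from *ALB*, with means of 74883 CPM in controls and 30535 CPM in NASH. Under library size alone 5 of the 12 were lower and 1 was higher (7.66% and 63.9% of all genes).

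Of the 10 genes, 7 were lower in NASH, 0 were higher and 3 (*GLUL*, *LGR5* and *RNF43*) did not pass the threshold. Over all genes, 26.0% were lower and 27.9% were higher by the same test, 53.9% in all. In 4 of the 10 (*CYP1A2*, *RHBG*, *OAT* and *TBX3*) every NASH animal lay below every control, against 15.3% of all genes. In none did every NASH animal lie above every control, against 18.4% of all genes (33.7% in either direction). When the test asked for a log2 fold change beyond 1 in size, *CYP1A2* and *CYP2E1* were lower and 0 of the 10 higher, where 2.08% of all genes were lower and 7.17% higher. The median log2 fold change of the 10 genes was -0.66. Fold changes in the group were very uneven, from an 11.7-fold lower level of *CYP1A2* to an estimate 1.14-fold higher for *RNF43*. The 95% intervals of the difference included 0 for *GLUL*, *LGR5* and *RNF43*.

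**Figure D1:**
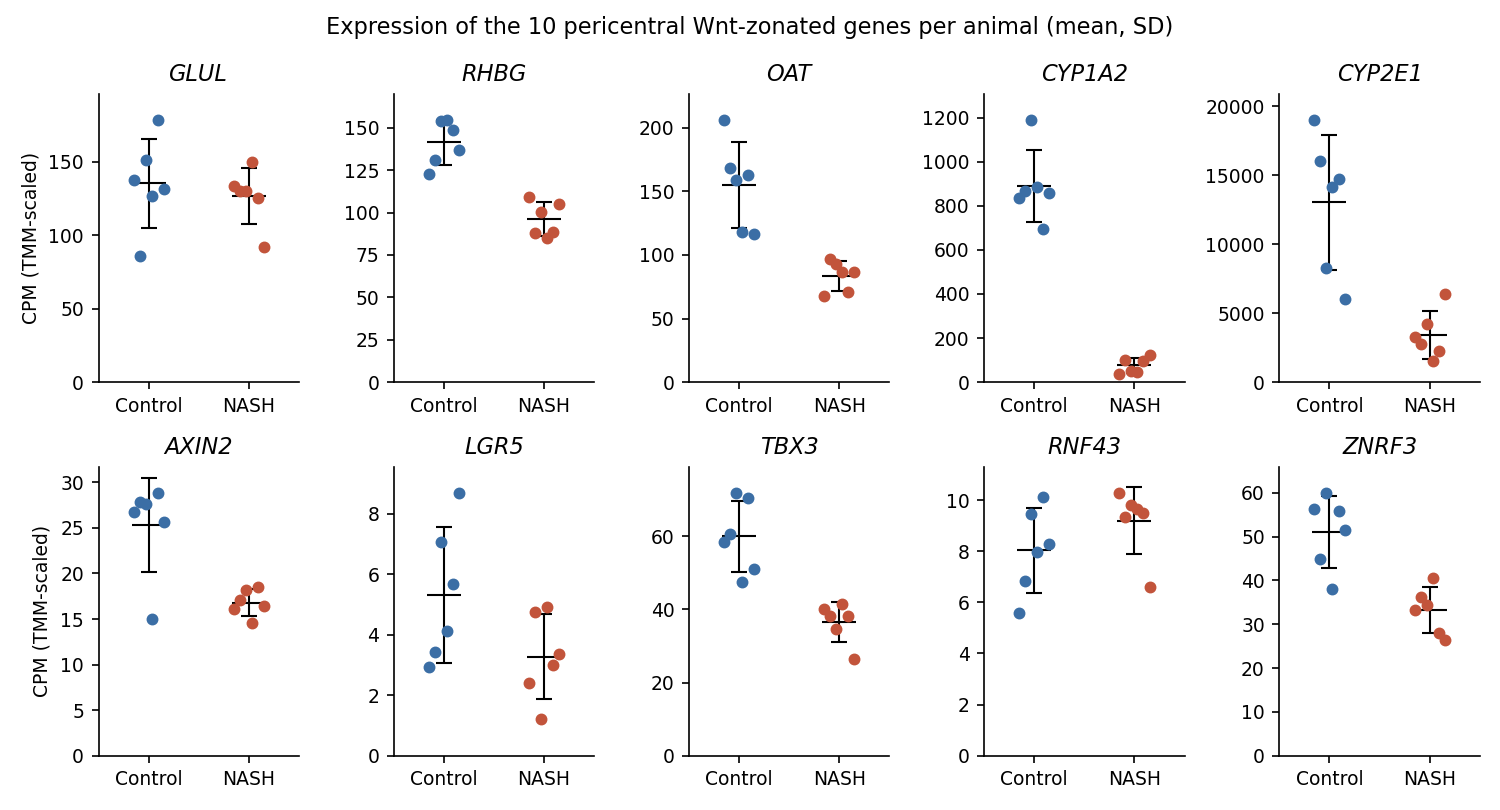
Level of each gene (CPM of the TMM-scaled library, linear axis) in 6 controls and 6 NASH animals, with 1 point per animal and the group mean and SD. *CYP1A2*, *RHBG*, *OAT* and *TBX3* show no overlap between groups, and *GLUL* and *RNF43* overlap broadly.

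*GLUL* encodes glutamine synthetase, which captures ammonia that has escaped the urea cycle and is restricted to the last hepatocytes before the central vein. Its level was 86.0 CPM in the lowest control, 134.6 at the median and 178.7 in the highest. In NASH it was 92.1 CPM in the lowest animal, 130.1 at the median and 149.6 in the highest. The range of NASH animals thus lay within that of the controls. The means were 135.3 ± 30.5 CPM in controls and 126.9 ± 19.0 CPM in NASH (SD, n = 6 each), with a log2 fold change of -0.09 (SE 0.16, edgeR adjusted p = 0.637). The 95% interval of the log2 fold change ran from -0.43 to 0.24. The sign depended on 1 library, since the estimate was 0.0027 without control animal 45, and it turned to 0.39 with library size alone (edgeR adjusted p = 0.0534) and to 0.84 with hepatocyte-marker scaling (edgeR adjusted p = 0.00183).

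*RHBG* encodes an ammonium transporter of the basolateral membrane of pericentral hepatocytes. Its level was 123.0 CPM in the lowest control, 142.7 at the median and 154.7 in the highest, and 85.1, 94.4 and 109.4 CPM in NASH. All NASH animals lay below all controls. The log2 fold change was -0.56 (SE 0.086, edgeR adjusted p = 0.000139). The difference was small but the spread within groups was also small, with an SD of 13.2 CPM around 141.4 in controls and 10.2 CPM around 96.1 in NASH. Scaled by library size alone it was -0.09 and did not pass the test (edgeR adjusted p = 0.433), and with hepatocyte-marker scaling it turned to 0.36 (edgeR adjusted p = 0.0243).

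*OAT* encodes ornithine aminotransferase, a mitochondrial enzyme that feeds ornithine into glutamate synthesis next to glutamine synthetase. Its level was 116.4 CPM in the lowest control, 160.7 at the median and 206.2 in the highest, and 67.6, 86.5 and 97.0 CPM in NASH. The groups did not overlap, and the log2 fold change was -0.89 (SE 0.15, edgeR adjusted p = 0.000213). *OAT* also passed the test with library size alone, at -0.41 (edgeR adjusted p = 0.0116). Against the hepatocyte markers it was level, with an estimate of 0.04 (edgeR adjusted p = 0.842). The ratio of *OAT* to *GLUL* within a library was 0.80 lower on the log2 scale in NASH and that of *RHBG* to *GLUL* 0.48 lower, both with overlap between groups and not tested.

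The wider set of genes for ammonia, glutamine, ornithine and proline handling held 23 measured genes, of which 13 fell, 6 rose and 4 did not pass the test (median -0.65), against 26.0% lower and 27.9% higher of all genes. Under library size alone 7 were lower and 9 higher, where 7.66% of all genes were lower and 63.9% higher. With hepatocyte-marker scaling 2 were lower and 11 higher, where 2.55% of all genes were lower and 83.5% higher. *PRODH*, the first enzyme of proline breakdown, fell furthest, from 82.4 ± 23.4 to 10.8 ± 7.13 CPM (SD, n = 6 each), and its count row also serves *AC007325.2*. *SLC38A3*, a glutamine transporter of the hepatocyte membrane, fell from 342.5 ± 38.5 to 83.2 ± 26.8 CPM (log2 fold change -2.04, edgeR adjusted p = 2.54e-06). *GLS2*, the liver glutaminase of periportal cells, fell by 1.25 on the log2 scale (edgeR adjusted p = 0.000187). The ratio of *GLUL* to *GLS2* within a library was 1.21 higher on the log2 scale in NASH than in controls, although single animals overlapped. *CPS1*, which commits ammonia to the urea cycle, fell by 0.91, and *GLUD1*, glutamate dehydrogenase, by 0.86 on a count row that also serves *GLUD2*. Genes that rose included 3 amino acid transporters, *SLC1A4* (log2 fold change 3.52), *SLC38A1* (2.76) and *SLC1A5* (2.05), together with *ODC1* of polyamine synthesis (1.01) and *ALDH18A1* of proline synthesis (0.32). These 5 were also higher under both other scalings.

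*CYP1A2* encodes a P450 enzyme that oxidises caffeine and aromatic amines. It fell further than any other of the 10 genes, and only 0.101% of all genes had a lower log2 fold change. Its level was 696.1 CPM in the lowest control, 861 at the median and 1190 in the highest, against 38.3, 73.6 and 122.7 CPM in NASH. The highest NASH animal lay far below the lowest control, and the NASH mean was 8.54% of the control mean. The log2 fold change was -3.55 (SE 0.31, 95% interval -4.21 to -2.89, edgeR adjusted p = 1.46e-06). It was -3.09 with library size alone and -2.72 with hepatocyte-marker scaling. NASH animals differed more among themselves than controls did, with a coefficient of variation of 47.0% against 18.3%.

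*CYP2E1* encodes the P450 enzyme that oxidises ethanol and paracetamol. Its level was 6049 CPM in the lowest control, 14420 at the median and 19010 in the highest, and 1565, 3037 and 6411 CPM in NASH. The NASH mean was 26.3% of the control mean, with a log2 fold change of -1.93 (SE 0.36, edgeR adjusted p = 0.000597). Of the 6 NASH animals 5 lay below every control. The overlap came from NASH animal 65, at 6411 CPM, and control animal 56, at 6049 CPM. The difference held with library size alone, at -1.46 (edgeR adjusted p = 0.00161), and with hepatocyte-marker scaling, at -1.05 (edgeR adjusted p = 0.00731). Within libraries the ratio of *CYP1A2* to *CYP2E1* was 3.26-fold lower in NASH, without overlap.

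*CYP1A2* is also a target of the aryl hydrocarbon receptor, so the receptor, its partners, its other targets and the electron donors of P450 enzymes were examined as a list. Of 13 measured genes 10 fell, 1 rose and 2 did not pass the test (median -0.74), against 26.0% lower and 27.9% higher of all genes. Under library size alone 6 were lower and 3 higher (7.66% and 63.9% of all genes), and with hepatocyte-marker scaling 2 were lower and 6 higher (2.55% and 83.5% of all genes). *CYP1A1*, the paralogue of *CYP1A2*, fell from 497.8 ± 111 to 192.7 ± 67.8 CPM (log2 fold change -1.37, edgeR adjusted p = 0.000271). The ratio of *CYP1A2* to *CYP1A1* within a library was 4.80-fold lower in NASH, without overlap between groups. *UGT1A6* fell by 1.48 and *NQO1* by 0.74, the latter without passing the test under library size alone (-0.27, edgeR adjusted p = 0.0934). The receptor gene *AHR* fell by 0.41 on a count row shared with *AC019117.4*, and its partner *ARNT* by 0.45. These 2 small differences turned positive with library size alone. *POR*, which passes electrons to all microsomal P450 enzymes, fell by 0.80 and *CYB5A*, cytochrome b5, by 1.06. *TIPARP*, an inducible repressor of the receptor, rose by 0.92 (edgeR adjusted p = 4.53e-05).

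Among the genes of the Wnt feedback loop, *AXIN2* was 15.1 CPM in the lowest control, 27.2 at the median and 28.8 in the highest, and 14.6, 16.8 and 18.5 CPM in NASH. The means were 25.3 ± 5.13 and 16.8 ± 1.46 CPM (SD, n = 6 each), and the log2 fold change was -0.59 (SE 0.14, edgeR adjusted p = 0.00283). The groups overlapped because of control animal 32 alone, since the other 5 controls held at least 25.6 CPM. *ZNRF3* was 37.96 CPM in the lowest control, 53.6 at the median and 59.9 in the highest, and 26.4, 33.8 and 40.6 CPM in NASH. It fell by 0.62 (SE 0.13, edgeR adjusted p = 0.00129), and 5 of 6 NASH animals lay below every control. *AXIN2* and *ZNRF3* kept a lower estimate with library size alone (-0.12 and -0.14) but did not pass the test, and both estimates were above 0 with hepatocyte-marker scaling (0.33 and 0.32).

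*RNF43* stood apart from its paralogue *ZNRF3*. It was 5.57 CPM in the lowest control, 8.13 at the median and 10.1 in the highest, and 6.62, 9.57 and 10.3 CPM in NASH. The groups overlapped almost fully, and the log2 fold change was 0.19 (SE 0.15, 95% interval -0.13 to 0.51, edgeR adjusted p = 0.296). It passed the test with library size alone, at 0.66 (edgeR adjusted p = 0.00304), and with hepatocyte-marker scaling, at 1.12 (edgeR adjusted p = 0.000135). The count row of *RNF43* also serves *AC004687.2*, so the reads of the pair cannot be separated. The ratio of *RNF43* to *ZNRF3* in the same library does not depend on the scaling. It was -2.67 ± 0.36 on the log2 scale in controls and -1.85 ± 0.19 in NASH (SD, n = 6 each), 1.77-fold higher in NASH and without overlap. In contrast, the ratios of *AXIN2* to *ZNRF3* and of *TBX3* to *ZNRF3* differed by 0.06 and -0.10 between groups and overlapped. These ratios were chosen after the values had been seen, add 0.5 counts to each gene, and were not tested.

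*TBX3* encodes a transcriptional repressor that is kept active by Wnt signals in pericentral hepatocytes. It was 47.5 CPM in the lowest control, 59.4 at the median and 71.8 in the highest, and 26.3, 38.1 and 41.4 CPM in NASH. There was no overlap, and *TBX3* fell by 0.72 (SE 0.13, edgeR adjusted p = 0.000429). The estimate was -0.24 with library size alone (edgeR adjusted p = 0.145) and with hepatocyte-marker scaling it was 0.22 (edgeR adjusted p = 0.268). Relative to *GLUL* in the same library, *TBX3* was 1.56-fold lower and *ZNRF3* 1.46-fold lower in NASH, both without overlap between groups.

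*LGR5* encodes an R-spondin receptor of pericentral hepatocytes and was the gene with the fewest reads, at 41 to 152 counts per control and 37 to 163 counts per NASH animal. Its level was 2.93 CPM in the lowest control, 4.90 at the median and 8.68 in the highest, and 1.21, 3.17 and 4.92 CPM in NASH. The coefficient of variation was 42.2% in controls and 43.2% in NASH. The log2 fold change was -0.70 (SE 0.34, edgeR adjusted p = 0.104), and its 95% interval ran from -1.44 to 0.04. A decrease as large as that of *TBX3* is therefore within the interval, and so is no difference.

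**Figure D2:**
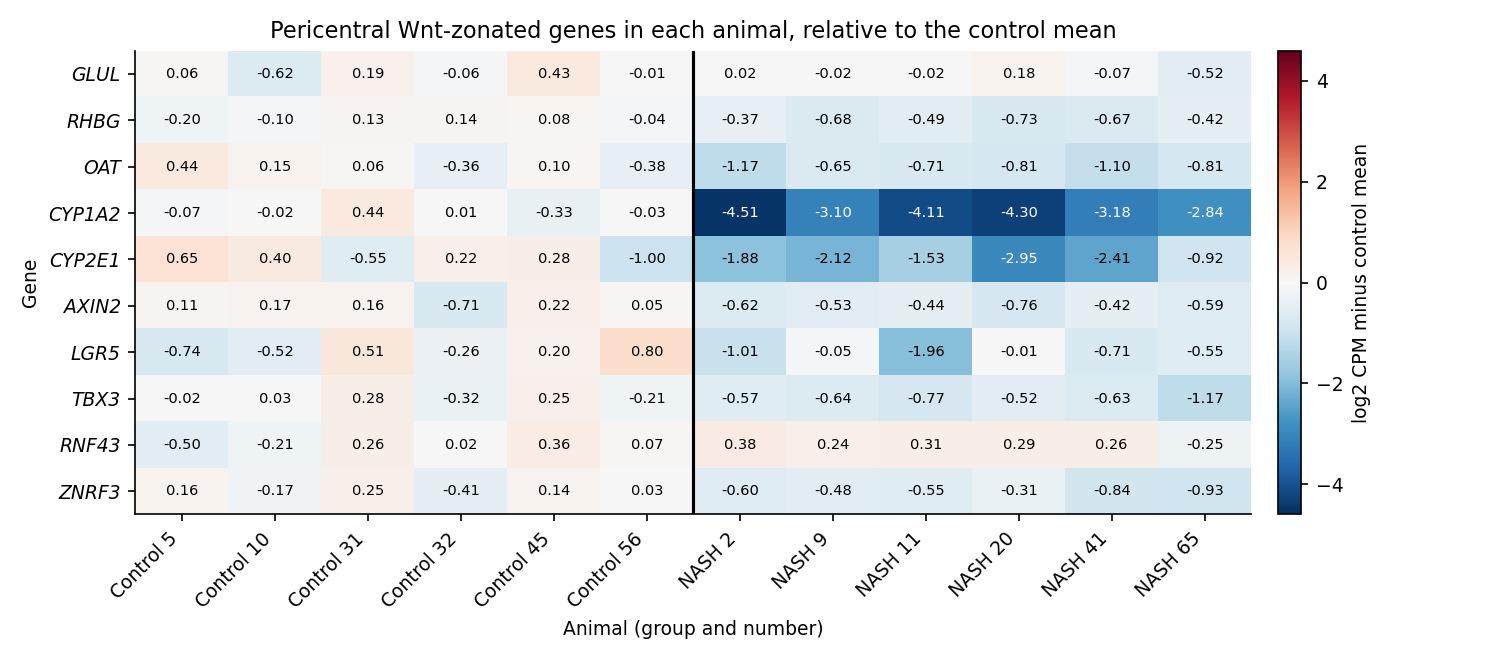
Each cell gives the log2 CPM of a gene (rows) in 1 animal (columns) minus the mean of the 6 controls, in blue where lower and in red where higher. *CYP1A2* lies between -4.51 and -2.84 in the NASH animals, *GLUL* and *RNF43* lie close to the controls, and animal 65 differs from the other NASH animals in several genes.

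The 10 genes did not all move together from one NASH animal to the next, but some did. The log2 ratios of *TBX3*, *RNF43* and *ZNRF3* to *GLUL* within a library had SDs of 0.072, 0.091 and 0.13 in NASH. In controls these SDs were 0.34, 0.32 and 0.29. For the remaining genes the SD of the ratio to *GLUL* in NASH ran from 0.29 (*AXIN2*) to 0.91 (*CYP2E1*). These spreads were not tested. NASH animal 65 had the lowest *GLUL*, *TBX3*, *RNF43* and *ZNRF3* of its group and the highest *CYP1A2* and *CYP2E1*. NASH animal 20 showed the reverse in several genes, with the highest *GLUL*, *LGR5*, *TBX3* and *ZNRF3* and the lowest *CYP2E1*, *RHBG* and *AXIN2*. Animal 65 also had the highest summed level of hepatocyte markers in its group (83350 CPM) and the lowest of cholangiocyte markers (437.9 CPM) and of stellate cell and myofibroblast markers (1508 CPM). Animal 20 had the lowest hepatocyte sum (55260 CPM) and the highest cholangiocyte (684.1 CPM) and stellate cell sums (2972 CPM). The part of these cells in the differences was not tested. Without animal 65 the log2 fold change of *CYP2E1* was -2.21 and that of *CYP1A2* was -3.75.

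**Figure D3:**
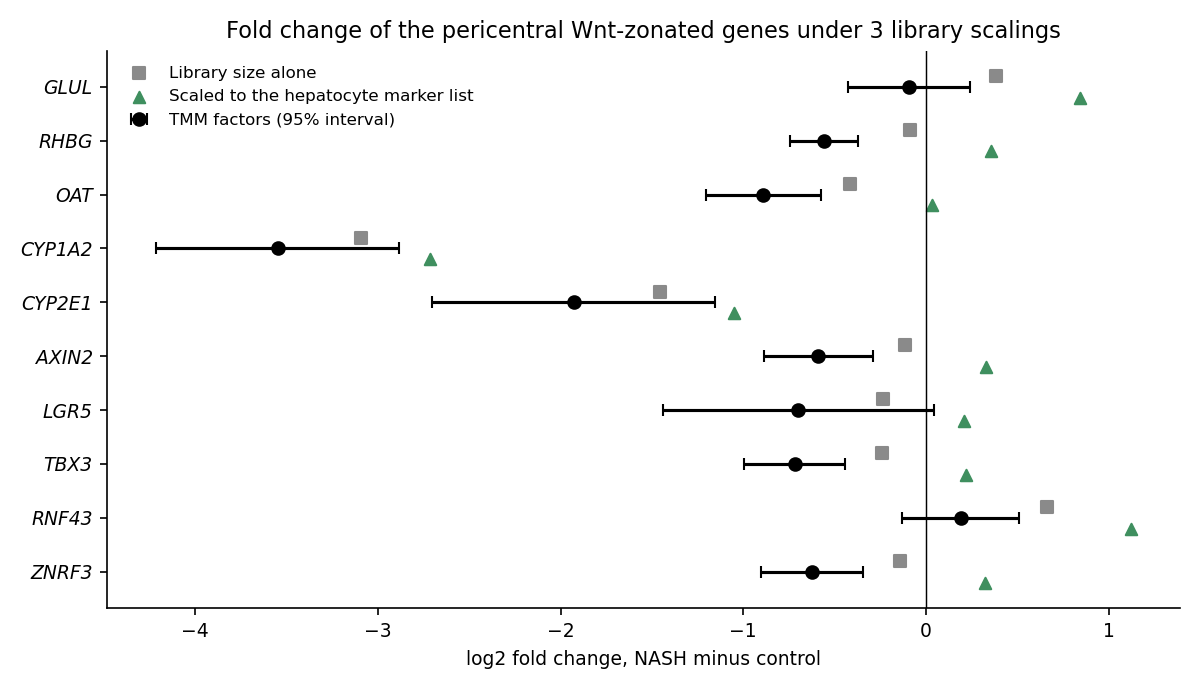
Log2 fold change (NASH minus control, with a 95% interval for TMM) of each gene under TMM, library size alone and scaling to the hepatocyte markers. *CYP1A2* and *CYP2E1* stay below 0 under all 3, *RNF43* stays above 0, and the other 7 cross 0.

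Because hepatocyte transcripts made up a smaller part of the NASH libraries, each gene was also set against the geometric mean of the 12 hepatocyte markers in the same library. On this scale *CYP1A2* was 2.77 lower on the log2 scale in NASH, and it was the only one of the 10 genes whose groups did not overlap. *CYP2E1* was 1.06 lower, with overlap. *OAT* differed by 0.03 and *LGR5* by 0.17, with overlap. *TBX3*, *ZNRF3*, *AXIN2* and *RHBG* were 0.19, 0.29, 0.35 and 0.35 higher, *GLUL* was 0.83 higher and *RNF43* 1.12 higher, all with overlap between groups. In edgeR with libraries scaled to these markers, 2 of the 10 genes were lower and 3 (*GLUL*, *RHBG* and *RNF43*) were higher, where 2.55% of all genes were lower and 83.5% higher. Without overlap, 1 of the 10 was lower and 0 higher, against 1.12% and 64.8% of all genes. With library size alone 3 were lower (*CYP1A2*, *CYP2E1* and *OAT*) and 1 was higher, where 7.66% of all genes were lower and 63.9% higher. There 1 of the 10 (*CYP1A2*) was lower without overlap and 0 higher, against 4.11% and 45.6% of all genes. The hepatocyte markers themselves did not fall evenly, and a scaling to them takes over their differences.

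Other genes of the pericentral zone were lower as well. Of 20 measured genes 17 fell, 0 rose and 3 did not pass the test, against 26.0% lower and 27.9% higher of all genes, and the median was -1.12 on the log2 scale. Under library size alone 10 were lower and 1 higher (7.66% and 63.9% of all genes), and with hepatocyte-marker scaling 6 were lower and 5 higher (2.55% and 83.5% of all genes). *HAMP*, the iron hormone hepcidin, which is on the list but is known to peak in hepatocytes between the zones, fell from 544.1 ± 206 to 64.1 ± 45 CPM, and *NR1I3*, the nuclear receptor CAR, from 90.8 ± 12.1 to 21.1 ± 5.61 CPM (SD, n = 6 each). *CPOX* of haem synthesis fell by 1.84, *ALDH1A1* by 1.59, *LHPP* by 1.55 and *FMO1* by 1.27 on the log2 scale. *NOTUM*, a secreted enzyme that inactivates Wnt ligands and is itself a Wnt target, fell by 0.72 (SE 0.19, edgeR adjusted p = 0.00649). Its estimate was -0.24 with library size alone (edgeR adjusted p = 0.293) and 0.23 with hepatocyte-marker scaling (edgeR adjusted p = 0.372). The Wnt feedback genes *NKD1* (0.46, edgeR adjusted p = 0.121) and *SP5* (-0.15, edgeR adjusted p = 0.733) did not pass the test, nor did *CYP7A1*, the rate-limiting enzyme of bile acid synthesis (0.0057).

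Lower levels were not limited to the pericentral side. Of 20 measured periportal genes 15 fell, 2 rose and 3 did not pass (26.0% lower and 27.9% higher among all genes), and the median was -0.89 on the log2 scale. The lowest was *SDS*, serine dehydratase (-3.17), and the highest was *CDH1*, E-cadherin (0.49), which is also made by cholangiocytes. With library size alone 9 periportal genes were lower and 4 higher, where 7.66% of all genes were lower and 63.9% higher. With hepatocyte-marker scaling 5 were lower and 5 higher, where 2.55% of all genes were lower and 83.5% higher. The difference between the zones was not tested.

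**Figure D4:**
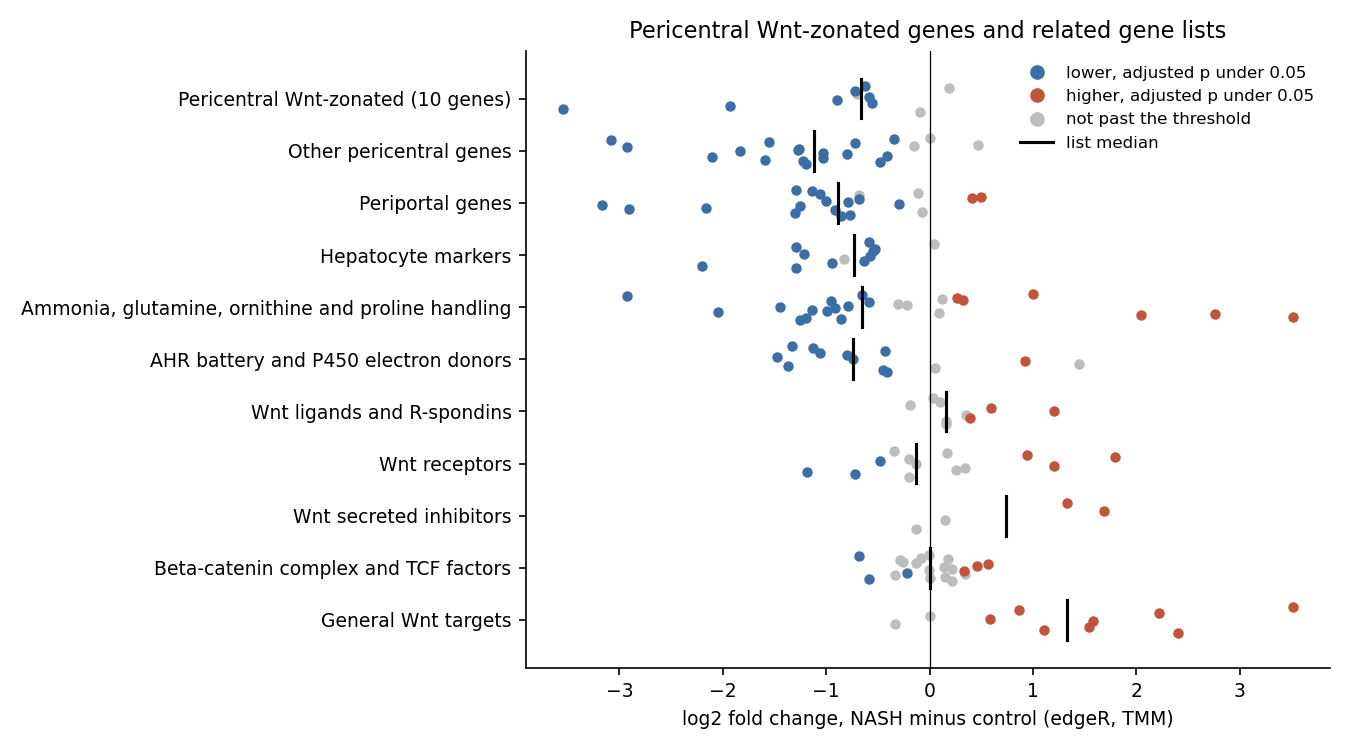
Log2 fold change (NASH minus control, TMM) of each measured gene (points) in the 10 pericentral Wnt-zonated genes and in related lists, coloured by the edgeR call, with the list median as a bar. Pericentral, periportal and hepatocyte lists have medians below 0, and general Wnt targets have the highest median of the 11 groups drawn (1.33).

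On the ligand side of the pathway, 0 of 9 measured Wnt ligands, R-spondins and secretion factors fell and 3 rose, against 26.0% and 27.9% of all genes. *RSPO3*, the R-spondin of the central vein, was 17.9 ± 2.11 CPM in controls and 15.8 ± 3.10 CPM in NASH (SD, n = 6 each) with a log2 fold change of -0.19 (edgeR adjusted p = 0.245). *WNT2* was 4.83 ± 1.07 and 5.41 ± 1.38 CPM (log2 fold change 0.16, edgeR adjusted p = 0.499). *WNT9B* was not among the genes analysed here. The ligands that rose were *WNT5B* (1.21), *WNT9A* (0.60) and *WNT4* (0.39). Under library size alone 8 of the 9 were higher, as were 63.9% of all genes, and with hepatocyte-marker scaling 9 were higher, as were 83.5% of all genes.

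Of 13 measured receptors and co-receptors 3 fell, 3 rose and 7 did not pass the test, shares close to the 26.0% lower and 27.9% higher of all genes. *FZD4* fell from 159.4 ± 55.8 to 70.3 ± 12.8 CPM (SD, n = 6 each), *FZD3* by 0.72 and *LRP5*, a co-receptor of the canonical pathway, by 0.48 on the log2 scale. *LGR6*, a relative of *LGR5*, rose by 1.80, *FZD7* by 1.20 and *ROR1* by 0.94. By library size alone 1 receptor was lower and 5 were higher (7.66% and 63.9% of all genes), and with hepatocyte-marker scaling 0 were lower and 8 higher (2.55% and 83.5% of all genes). Of 4 measured genes of the secreted inhibitors 2 rose and 0 fell, against 27.9% higher and 26.0% lower of all genes. *DKK3* rose by 1.69, and *KREMEN1*, a receptor for such inhibitors, by 1.33 from a low level of 0.41 CPM in controls. *FRZB* (0.15) and *SFRP1* (-0.13) did not pass the test. Under library size alone 2 were higher and 0 lower (63.9% and 7.66% of all genes). With hepatocyte-marker scaling 3 were higher and 0 lower (83.5% and 2.55% of all genes).

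Inside the cell, 14 of 20 measured genes of the β-catenin complex and its TCF partners did not pass the test, 3 fell and 3 rose, against 26.0% lower and 27.9% higher of all genes. *CTNNB1*, which encodes β-catenin, was 232.8 ± 57.0 CPM in controls and 270.5 ± 45.02 CPM in NASH (SD, n = 6 each) with a log2 fold change of 0.22 (edgeR adjusted p = 0.247). *AXIN1*, the constitutive relative of *AXIN2*, differed by 0.0035 (edgeR adjusted p = 0.965). *APC*, a scaffold of the degradation complex, fell by 0.59, the corepressor *TLE1* by 0.68 and *BTRC*, the ubiquitin ligase adaptor for β-catenin, by 0.22. *TNKS2* (0.56) and *TNKS* (0.46), which mark axins for removal, and *AMER1* (0.34) rose. With library size alone 14 of the 20 were higher and 0 lower, where 63.9% of all genes were higher and 7.66% lower. With hepatocyte-marker scaling 18 were higher and 0 lower, where 83.5% of all genes were higher and 2.55% lower.

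Markers of other cells were measured in the same libraries, and their part in the results above was not tested. Their counts stand against 27.9% higher and 26.0% lower of all genes. Of 9 cholangiocyte markers 8 rose, from *SLC4A2* (0.21) to *CLDN4* (4.33), and the summed level went from 158.3 to 213.5 CPM in controls to 437.9 to 684.1 CPM in NASH. Of 10 markers of stellate cells and myofibroblasts 7 rose and 1 fell, with *LRAT* lowest (-0.57) and *COL1A1* highest (4.21), and with sums of 716.5 to 882.1 CPM in controls and 1508 to 2972 CPM in NASH. All 7 erythroid markers rose, with *KLF1* lowest (2.33) and with sums of 58.6 to 176.1 and 446.1 to 4664 CPM. All 7 proliferation markers rose, from *PLK1* (0.48) to *BUB1* (5.27), with sums of 9.72 to 14.2 and 30.5 to 116.7 CPM. Of 7 macrophage markers 2 rose and 1 fell, with *MARCO* lowest (-1.27) and *MSR1* highest (1.15), and with overlapping sums of 357.8 to 755.8 and 571.2 to 879.5 CPM. By library size alone 4 macrophage markers were higher and 1 lower (63.9% and 7.66% of all genes). With hepatocyte-marker scaling 5 were higher and 0 lower (83.5% and 2.55%). Of 11 endothelial markers 3 rose and 2 fell, with *LYVE1* lowest (-0.81) and *VWF* highest (1.46), and with overlapping sums of 807.7 to 1156 and 846.2 to 1179 CPM. By library size alone 4 endothelial markers were higher and 1 lower (63.9% and 7.66% of all genes), and with hepatocyte-marker scaling 10 were higher and 0 lower (83.5% and 2.55%). Counts of 0 among these markers occurred in controls only, for example in the proliferation markers *TOP2A*, *CCNA2* and *BUB1* and in the erythroid marker *SLC4A1*.

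The genes with the most similar profile over the 12 animals were found as those with the smallest root mean square difference of centred log2 CPM. For *GLUL* they were *MINDY3* (0.137), *PCM1* (0.166) and *CHRNB1* (0.167). For *AXIN2* they were *NDUFB9* (0.145), *ADPRM* (0.150) and *SOCS6* (0.162). For *LGR5* the nearest were *FLT4* (0.438), *NUDCD2* (0.439) and *DENND6B* (0.442). For *CYP2E1* the nearest was 1 count row (0.426) that carries the symbols *SLCO1B3*, *SLCO1B1* and *AC022335.1*, of which *SLCO1B3* and *SLCO1B1* encode uptake transporters of hepatocytes. The genes nearest to *GLUL*, *AXIN2* and *LGR5* were on no list examined here.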

How the data were processed

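The authors deposited raw counts per gene of guinea pig liver libraries. Per the labels and the methods of the study, reads were trimmed with Trimmomatic 0.38.0, mapped with HISAT2 2.1.0 to Cavpor3.0 without multimapped reads and quantified with StringTie 1.3.6. The authors also deposited log2 values (rlog of DESeq2) for genes with a human orthologue symbol and a total of at least 200 counts. The count table holds no symbols, so the rlog was repeated and each symbol paired with the count row of equal values (largest difference 8.35e-07). The 11896 symbols came from 11031 rows. Of these symbols 1515 share a row with another, and reads of paralogues lost as multimapped are missing from both.

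Counts were tested in R 4.3.3 with edgeR 4.0.16 (TMM, whole-table library sizes, robust glmQLFit and glmQLFTest) between 6 NASH animals and 6 controls, with Benjamini-Hochberg adjusted p under 0.05 over all 11896 symbols. The SE of a log2 fold change is its size over the square root of F. Log2 CPM used a prior count of 2. Figures were drawn with matplotlib 3.10.9. The tests were tried on simulated data. Each library is a separate animal, and every pair within a group differed by more than counting noise. Alternatives were other scalings, DESeq2 1.42.0, limma-voom 3.58.1, other filters and thresholds, and leaving out each animal.

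The 10 genes, the lists and the tests were chosen with earlier results of these data known. Every one of the 10 genes is described. Any gene of the Wnt, pericentral, ammonia and aryl hydrocarbon receptor lists could be named, and of the other lists the genes with the highest and lowest log2 fold change. *TOP2A*, *CCNA2* and *SLC4A1* are named outside this rule for their counts of 0, and *ALB* for its part in the hepatocyte sum. Some genes that the rule would name are not reported here. For *GLUL*, *CYP2E1*, *AXIN2* and *LGR5* the 3 nearest profiles are named.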

Additional observations from a re-analysis of the deposited data

Results flagged for a closer look

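In 20 groups of 6 values (10 genes, controls and NASH), the lowest or highest animal was compared with the rest by Dixon's ratio, the gap to the nearest animal over the range of the group, at its 95% critical value. Chance passes it in about 1 in 20 groups. *AXIN2* in control animal 32 was 15.1 CPM, against 25.6 CPM in the next control (ratio 0.77). Without this animal the log2 fold change of *AXIN2* was -0.70. *RNF43* in NASH animal 65 was 6.62 CPM, against 9.34 CPM in the next NASH animal (ratio 0.746).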

How the results depend on the processing

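RLE factors, upper-quartile factors, DESeq2, limma-voom, every count row, filterByExpr, a threshold of 0.01 and fitting without robust estimation left the direction and the call of all 10 genes as reported. With library size alone 3 genes were lower, 1 was higher and 1 was lower without overlap. There *GLUL* turned to 0.39 and *RNF43* passed the test at 0.66, while *RHBG* (-0.085), *AXIN2* (-0.12), *TBX3* (-0.24) and *ZNRF3* (-0.14) no longer did. With hepatocyte-marker scaling 2 genes were lower, 3 were higher and 1 was lower without overlap. There *GLUL* (0.84), *RHBG* (0.36), *OAT* (0.035), *AXIN2* (0.33), *LGR5* (0.21), *TBX3* (0.22) and *ZNRF3* (0.32) turned positive, and *RNF43* passed at 1.12. These 2 settings move the median of all genes, and the cause of that shift was not tested. Asking for a log2 difference beyond 1 in size kept 2 lower genes (*CYP1A2* and *CYP2E1*) and not *RHBG* (-0.56), *OAT* (-0.89), *AXIN2* (-0.59), *TBX3* (-0.72) or *ZNRF3* (-0.62), which lie under that size by estimate.

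With each animal left out in turn, 7 genes were lower and 0 higher every time, and 4 to 6 were lower without overlap, 6 of them without control animal 32. *GLUL* ranged from -0.19 to 0.0027, the highest value without control animal 45. *LGR5* ranged from -0.85 to -0.51 and did not pass in any of these fits (edgeR adjusted p from 0.064 to 0.23). The counts of the gene lists under hepatocyte-marker scaling were added after the data had been seen. No paired analysis was possible because the groups share no animal number.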

Other observations

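General targets of Wnt signalling that are not tied to the pericentral zone were mostly higher in NASH. Of 10 measured genes 8 rose and 0 fell, against 27.9% higher and 26.0% lower of all genes, with a median log2 fold change of 1.33. Under library size alone 8 were higher and 0 lower (63.9% and 7.66% of all genes). With hepatocyte-marker scaling 8 were higher and 0 lower, close to the 83.5% and 2.55% of all genes. The highest was *SLC1A4* (3.52), which is also counted in the ammonia and amino acid list above. *MYC* rose from 3.06 ± 1.15 to 16.2 ± 2.20 CPM and *TNFRSF19* from 8.87 ± 1.19 to 41.4 ± 10.2 CPM (SD, n = 6 each). *CCND1*, a cyclin that drives entry into the cell cycle, rose by 1.11, *CD44*, a hyaluronan receptor, by 1.54, *FOSL1* by 1.58, *ASCL2* by 0.87 and *PPARD* by 0.58 on the log2 scale. *BMP4* (0.0043) and *JUN* (-0.33) did not pass the test, and the sign of *JUN* turned with both other scalings. These genes are also expressed by cells other than hepatocytes and respond to signals other than Wnt.

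Of 7 measured genes listed for the endothelium of the central vein, 4 rose and 1 fell, against 27.9% higher and 26.0% lower of all genes, with *PTGS1* lowest (-0.70) and *FABP4* highest (2.0). Under library size alone 5 were higher and 0 lower (63.9% and 7.66% of all genes), and with hepatocyte-marker scaling 6 were higher and 0 lower (83.5% and 2.55% of all genes). Their summed level was 72.2 to 80.6 CPM in controls and 89.2 to 132.9 CPM in NASH. *RSPO3* is on this list too, and its groups overlapped.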
